A study of Sus scrofa with 32 samples.

Results

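The 4 genes MUT, MMADHC, SLC39A14 and SLC39A4, of vitamin B12 and zinc handling, were followed in the fetal liver of Pietrain pigs. They were chosen by symbol: every probe set of the array whose annotation gave exactly 1 of the symbols MUT, MMADHC, SLC39A14 or SLC39A4 was taken. This gave 5 probe sets for 4 genes, out of 6765 genes that had a probe set with a single symbol. SLC39A14 had 2 probe sets, Ssc.19427.1.S1_at and Ssc.19427.2.S1_at, and the others had 1 each (MUT Ssc.46.1.S1_at, MMADHC Ssc.2471.1.A1_at and SLC39A4 Ssc.27155.1.S1_at). RNA of 32 livers was hybridised, 1 array per liver. The fetuses came from gilts that received a methyl-enriched or a control gestation diet, and they were collected at 35, 63 or 91 days post coitum (dpc). Each diet had 5 arrays at the youngest and the oldest age and 6 at 63 dpc. All were liver of 1 breed, and the labels list neither the nutrients that were added nor the dam, litter or sex of a fetus. Fetuses of 1 dam in 1 group would make the p-values below too small, and the number of arrays limits the precision.

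Vitamin B12 (cobalamin) serves 2 enzymes in animal cells. In the cytosol methionine synthase uses it to remethylate homocysteine, and in mitochondria methylmalonyl-CoA mutase, the product of MUT, uses it to turn methylmalonyl-CoA into succinyl-CoA, the last step in the breakdown of propionate, valine, isoleucine and odd-chain fatty acids. MMADHC encodes the protein that, in human cells, directs cobalamin to one enzyme or the other. SLC39A14 (ZIP14) and SLC39A4 (ZIP4) encode membrane carriers of one family that bring zinc into the cytosol. In the mouse liver ZIP14 also takes up iron and manganese and is induced by interleukin-6, while ZIP4 is the carrier of intestinal zinc absorption, whose loss in humans causes the zinc deficiency disease acrodermatitis enteropathica.

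The values were log2 signals as deposited, with array medians between 3.84 and 4.23. A gap between the spike-in control probe sets bioC and bioB divided the arrays into 18 with a gap of 1.48 to 1.96 and 14 with a gap of 0.24 to 0.41, called high-gap and low-gap arrays. These classes are called batches below, although the sample labels used here name no batch. Within each diet the batches held 3 (high-gap) and 2 (low-gap) arrays at 35 as well as at 91 dpc, and 3 of either kind at 63 dpc. The liver label was borne out by 10 hepatocyte markers, whose mean ran from 14.4 to 15 at 35 dpc, from 15.1 to 15.5 at 63 dpc and from 15.4 to 15.6 at 91 dpc. The mean of the 7 erythroid markers tested, of 17 listed, ran from 10.1 to 11 at 35 dpc, from 9.62 to 10.4 at 63 dpc and from 7.62 to 8.95 at 91 dpc. In bulk RNA, fewer cells of a type and less RNA per cell cannot be told apart.

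MUT, the mutase, rose in both intervals. At 35 dpc it read 5.74, 6.10, 6.16, 6.10 and 5.79 in the methyl-diet arrays and 6.52, 6.52, 6.20, 5.86 and 6.50 in the control arrays. At 63 dpc the lowest, median and highest values were 6.30, 6.52 and 6.55 in methyl-diet arrays and 6.02, 6.62 and 6.97 in control arrays. At 91 dpc it read 7.14, 6.83, 7.55, 6.67 and 7.27 in methyl-diet arrays and 7.65, 6.92, 7.0, 7.09 and 7.63 in control arrays. Every array at 91 dpc lay above every array at 35 dpc, while 63 dpc overlapped with both. Between 63 and 35 dpc the log2 difference was 0.37 ± 0.13 (SE), a 1.29-fold rise (limma adjusted p = 0.0139), and between 91 and 63 dpc it was 0.66 ± 0.13, a 1.58-fold rise (limma adjusted p = 5.84e-05). The whole span from 35 to 91 dpc was 1.03 ± 0.13, or 2.04-fold (limma adjusted p = 3.78e-08). After quantile normalization the first rise was 0.15 ± 0.11 (adjusted p = 0.257) and no longer passed.

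MMADHC, the cobalamin trafficking gene, had the largest difference between 91 and 35 dpc of the 5 probe sets. At 35 dpc it read 9.06, 8.98, 9.42, 9.14 and 9.27 in methyl-diet arrays and 10.11, 10.06, 8.94, 8.85 and 9.85 in control arrays. Of the 5 control values, 3 lay above every methyl-diet value and the other two lay below all of them. At 63 dpc the lowest, median and highest values were 10.08, 10.37 and 10.75 in methyl-diet arrays and 9.74, 10.36 and 10.88 in control arrays. At 91 dpc MMADHC read 11.02, 10.84, 11.06, 10.43 and 11.15 in methyl-diet arrays and 11.10, 10.59, 11.27, 10.70 and 11.32 in control arrays. All arrays at 91 dpc lay above all at 35 dpc, and 63 dpc again overlapped with both. The rise was 1.0 ± 0.16 (SE) between 63 and 35 dpc (2.01-fold, limma adjusted p = 2.56e-06) and 0.58 ± 0.16 between 91 and 63 dpc (1.49-fold, limma adjusted p = 0.00201), together 2.99-fold over the whole span (1.58 ± 0.16, limma adjusted p = 3.22e-10).

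SLC39A14, the ZIP14 carrier, rose as well, most clearly by its brighter probe set Ssc.19427.1.S1_at. At 35 dpc this probe set read 6.73, 6.46, 6.76, 6.83 and 6.75 in methyl-diet arrays and 6.89, 6.75, 5.94, 6.21 and 6.10 in control arrays. At 63 dpc the lowest, median and highest values were 7.12, 7.24 and 7.57 in methyl-diet arrays and 7.0, 7.22 and 7.32 in control arrays. At 91 dpc it read 7.21, 7.68, 8.01, 7.21 and 7.42 in methyl-diet arrays and 8.72, 7.21, 8.06, 7.70 and 8.0 in control arrays. The arrays at 35 dpc lay below all arrays of both later ages, and 91 dpc overlapped with 63 dpc. The difference was 0.70 ± 0.14 (SE) between 63 and 35 dpc (1.62-fold, limma adjusted p = 8.31e-05), 0.48 ± 0.14 between 91 and 63 dpc (1.39-fold, limma adjusted p = 0.00391) and 1.18 ± 0.15 between 91 and 35 dpc (2.26-fold, limma adjusted p = 1.43e-08).

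The second SLC39A14 probe set, Ssc.19427.2.S1_at, rose in the first interval only as far as the tests go. Its values at 35 dpc were 3.47, 5.02, 3.50, 4.88 and 4.98 in methyl-diet arrays and 4.28, 4.94, 4.69, 5.02 and 4.32 in control arrays. At 63 dpc the lowest, median and highest values were 4.07, 5.17 and 5.78 in methyl-diet arrays and 4.63, 5.21 and 5.65 in control arrays. At 91 dpc it read 4.27, 6.28, 5.02, 5.02 and 4.81 in methyl-diet arrays and 5.54, 5.77, 5.02, 5.63 and 4.74 in control arrays. All 3 ages overlapped. The difference between 63 and 35 dpc was 0.65 ± 0.24 (SE, limma adjusted p = 0.0179), and that between 91 and 63 dpc was 0.05 ± 0.24 (limma adjusted p = 0.872). Between 91 and 35 dpc it was 0.70 ± 0.25 (limma adjusted p = 0.0106), a call lost after quantile normalization (0.40, adjusted p = 0.139) and with array weights (0.54, adjusted p = 0.0578). The first-interval call was also lost after quantile normalization (0.44, adjusted p = 0.115). In each batch alone it was lost too, at 0.605 in high-gap arrays (limma adjusted p = 0.0652) and 0.546 in low-gap arrays (limma adjusted p = 0.0848). The value 5.02 occurred in 6 of 32 arrays.

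With high-gap and low-gap arrays pooled, the deviations of the 2 SLC39A14 probe sets from their group means showed no correlation. Over 32 arrays the deviations from the group means had Pearson's r = -0.0096 (permutation p = 0.957, adjusted over the 2 relations computed 0.957) and Spearman's rho = -0.024 (permutation p = 0.899, adjusted 0.899). Without the 2 arrays farthest from the median r was 0.029, and within batches it was 0.29 in the 18 high-gap arrays and 0.25 in the 14 low-gap ones. The probe sets deviated in opposite directions between high-gap and low-gap arrays. Ssc.19427.1.S1_at deviated by 0.072 on average in high-gap arrays and by -0.092 in low-gap arrays, whereas Ssc.19427.2.S1_at deviated by -0.32 and by 0.41. The permutations shuffled arrays across high-gap and low-gap, so the pooled test cannot show whether the probe sets vary together within either kind. With the batch as a block the difference of the second probe set between 63 and 35 dpc was 0.58 ± 0.17 (SE, limma adjusted p = 0.0046) and that between 91 and 63 dpc was 0.12 ± 0.17 (limma adjusted p = 0.553).

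SLC39A4, the ZIP4 carrier, had 1 repeated value in most arrays. In 24 of 32 arrays its signal was 4.27 (to within 0.01), namely in 5 of 10 arrays at 35 dpc, 11 of 12 at 63 dpc and 8 of 10 at 91 dpc. At 35 dpc the values were 4.27, 4.78, 4.27, 4.65 and 5.38 in methyl-diet arrays and 4.27, 4.57, 4.73, 4.27 and 4.27 in control arrays. All arrays that rose above the repeated value were at 35 dpc, except 1 methyl-diet array at 63 dpc (4.67). The repeated value was not the bottom of the scale, because 1 methyl-diet array (3.75) and 1 control array (3.71) at 91 dpc lay below it. Of the 15327 probe sets tested, 1291 (8.42%) likewise held 1 value in 16 or more arrays. SLC39A4 was lower at 91 than at 35 dpc by limma (log2 difference -0.38 ± 0.12, SE, adjusted p = 0.00427), a test in which 5 arrays at 35 dpc and 2 at 91 dpc had another value, and its intervals of -0.24 ± 0.11 (limma adjusted p = 0.0661) and -0.14 ± 0.11 (limma adjusted p = 0.292) did not pass. The fall was lost in low-gap arrays alone (-0.30, adjusted p = 0.0742), and after quantile normalization the first interval passed too (-0.45, adjusted p = 0.00217).

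**Figure D1:**
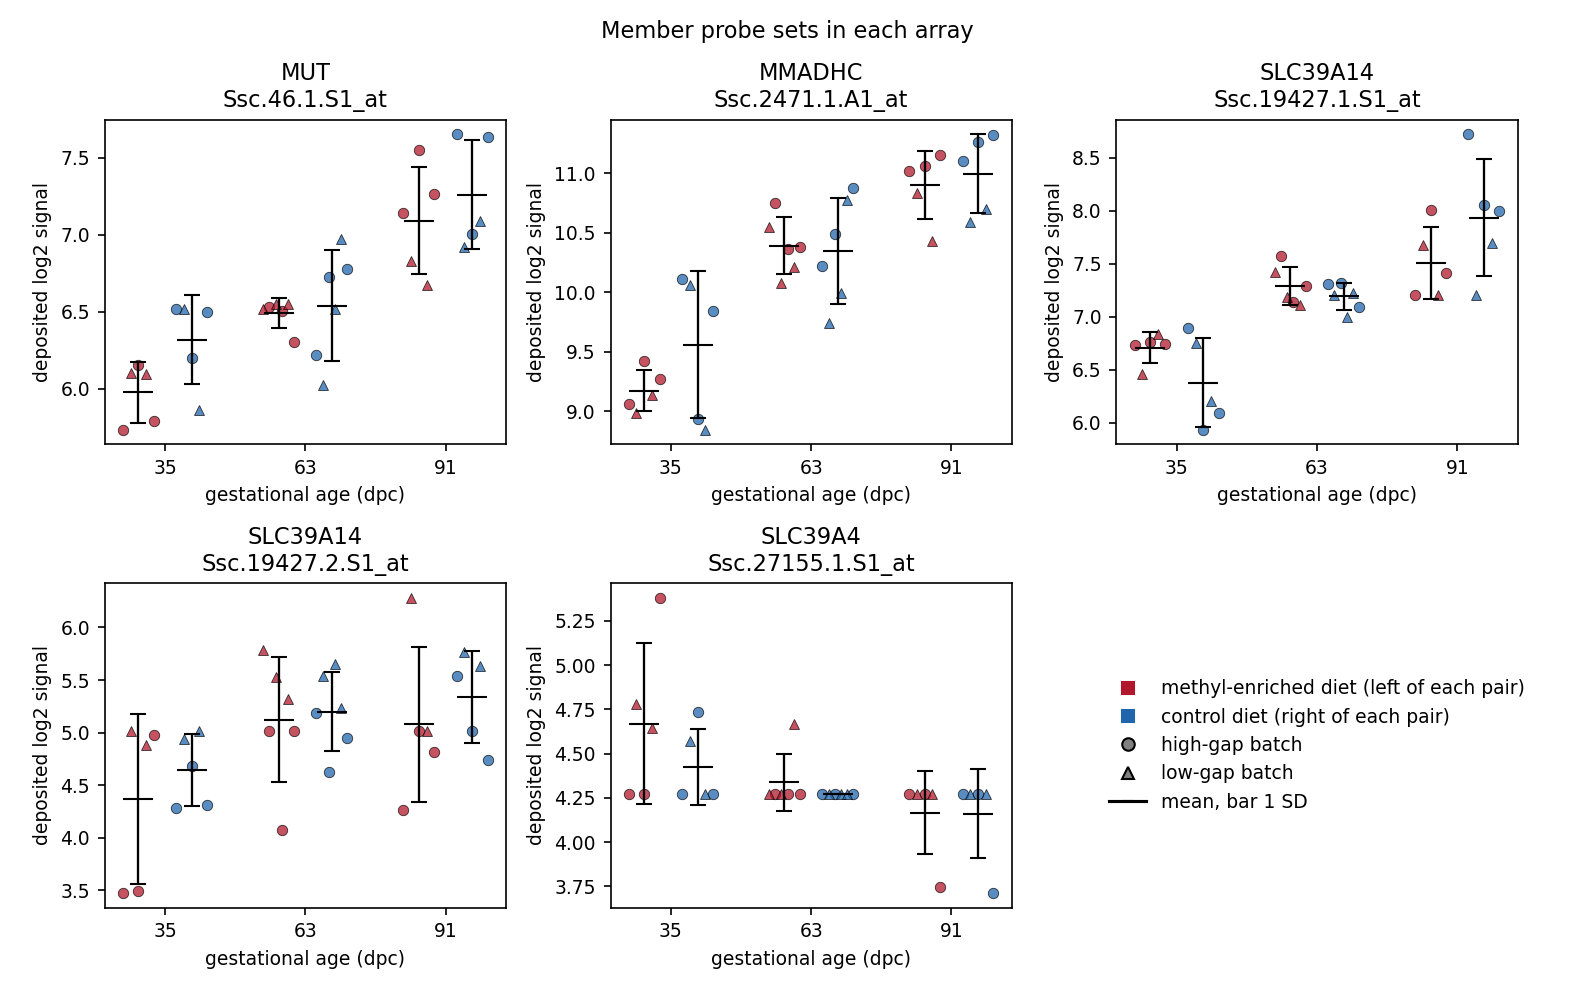
Deposited log2 signal (y axis, a separate scale per panel) of the 5 probe sets against gestational age in dpc, 1 point per array, methyl-enriched diet left of control diet at each age, circles for high-gap and triangles for low-gap arrays, with the mean and a bar of 1 SD. MUT, MMADHC and SLC39A14 Ssc.19427.1.S1_at lie higher at 91 dpc than at 35 dpc in every array, and SLC39A4 sits at 4.27 in 24 of 32 arrays.

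Counted over the 5 probe sets, 4 were called between 63 and 35 dpc, all higher, where limma called 60.5% of all probe sets tested (32.5% higher). Between 91 and 63 dpc 3 of 5 were called, all higher, against 58.5% of all (29.5% higher). Between 91 and 35 dpc all 5 were called, 4 higher and SLC39A4 lower, against 79.9% of all (40.8% higher and 39.1% lower). At 91 dpc 3 of the 5 lay above 35 dpc without overlap, against 21.4% of all probe sets tested, and at 63 dpc 1 of the 5 did, against 3.61%. Between 91 and 63 dpc 0 of the 5 were without overlap, against 13.0% of all. Counted in either direction, calls for these genes were about as frequent as over the whole array, and most of theirs were rises. By absolute size, the MMADHC difference between 91 and 35 dpc exceeded that of 75% of the probe sets tested, that of the brighter SLC39A14 probe set 62.5%, that of MUT 57% and that of SLC39A4 25.9%. The successive intervals share the 63 dpc arrays, so their values are not independent.

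The erythroid marker mean was lower at the ages at which MUT, MMADHC and SLC39A14 were higher, and at 91 dpc its range (7.62 to 8.95) did not meet that at 63 dpc (9.62 to 10.4). Of the 7 erythroid markers 5 fell between 91 and 35 dpc, HBB, the adult beta-globin gene, rose by 2.02 (limma adjusted p = 2.28e-08) and TFRC, the transferrin receptor, was not called. With this mean as a covariate the differences between 91 and 63 dpc were 0.56 ± 0.37 for MUT (SE, limma adjusted p = 0.302), 0.32 ± 0.44 for MMADHC (limma adjusted p = 0.661) and 0.019 ± 0.39 for the brighter SLC39A14 probe set (limma adjusted p = 0.981). None of the 5 probe sets passed in that interval with the covariate, and between 63 and 35 dpc 3 did (MMADHC and both of SLC39A14). Over the whole span none passed either, at differences of 0.90 ± 0.46 for MUT, 1.24 ± 0.56 for MMADHC, 0.58 ± 0.49 for the brighter and 1.21 ± 0.85 for the second SLC39A14 probe set, and -0.50 ± 0.41 for SLC39A4, with SEs about 3 to 4 times those without the covariate. The hepatocyte marker mean was 14.7 at 35 dpc, 15.3 at 63 dpc and 15.5 at 91 dpc, but of its 10 genes 4 rose between 91 and 35 dpc (ALB by 3.93 and APOB by 3.14 the most), 4 fell (SERPINA1, TF, AHSG and RBP4) and 2 were not called. The mean of 7 macrophage markers was 7.27, 7.55 and 8.67, with 4 rises and 0 falls over the same span. The mean of 6 neutrophil markers was 7.90, 8.79 and 7.24, that of 3 cholangiocyte markers 6.09, 6.39 and 7.07, that of 3 pancreas markers 7.18, 7.12 and 6.69, and that of 2 markers of intestine and visceral yolk sac 4.84, 5.42 and 5.43. Between 91 and 35 dpc 1 cholangiocyte marker rose (EPCAM, by 3.73), 1 fell and 1 was not called. Of the pancreas markers 1 rose (AMY2, by 2.19) and 2 fell. Of the neutrophil markers 0 rose, 3 fell and 3 were not called. Of the intestine and yolk sac markers 1 rose and 1 was not called. At 91 dpc the erythroid mean overlapped with neither earlier age, so the covariate cannot separate it from age in differences against 91 dpc. The part of cell composition in the differences was not tested. Within batches the 91 to 63 dpc differences of MUT, MMADHC and the brighter SLC39A14 probe set were 0.86, 0.64 and 0.61 in high-gap arrays, where all passed, and 0.36, 0.41 and 0.26 in low-gap arrays, where none did. For the first interval the high-gap values were 0.36, 1.07 and 0.76 and the low-gap values 0.38, 0.97 and 0.63, with MUT past the threshold in neither batch alone.

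The diet comparison asked whether the methyl-enriched diet of the mother changed these genes in the fetus. No member probe set was called at any age, and limma called 0.0391% of all probe sets at 35 dpc, 0% at 63 dpc and 0.0718% at 91 dpc. At an unadjusted p under 0.05, 0 of 5 passed at 35 dpc, 0 of 5 at 63 dpc and 1 of 5 at 91 dpc, the brighter SLC39A14 probe set. Of all 15327 probe sets tested, 933 passed that unadjusted threshold at 35 dpc, 219 at 63 dpc and 1000 at 91 dpc. At every age the ranges of the diets overlapped for all 5 probe sets, and the share over all probe sets tested was not computed. Averaged over ages, 0 of 15327 probe sets were called (685 at an unadjusted p under 0.05), and the 5 probe sets differed by between -0.21 and 0.11.

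At 35 dpc both vitamin B12 genes had lower means in the methyl-diet fetuses. MUT averaged 5.98 ± 0.20 in methyl-diet and 6.32 ± 0.29 in control arrays (SD, n = 5 each), a difference of -0.34 with a 95% interval of -0.73 to 0.044 (limma adjusted p = 0.876). In high-gap arrays alone the MUT difference was -0.51 ± 0.22 (SE, limma adjusted p = 0.501) and in low-gap arrays alone -0.090 ± 0.30 (limma adjusted p = 1). MMADHC averaged 9.17 ± 0.17 in methyl-diet and 9.56 ± 0.62 in control arrays, a difference of -0.39 with an interval of -0.85 to 0.081 (limma adjusted p = 0.893), and by batch it was -0.38 in the high-gap arrays and -0.39 in the low-gap ones. Its control mean rests on a split group, as 3 arrays read between 9.85 and 10.11 and the other two 8.85 and 8.94. The brighter SLC39A14 probe set averaged 6.71 ± 0.15 in methyl-diet and 6.38 ± 0.42 in control arrays (difference 0.33, interval -0.089 to 0.75, limma adjusted p = 0.905), and SLC39A4 averaged 4.67 ± 0.46 in methyl-diet and 4.42 ± 0.22 in control arrays (difference 0.25, interval -0.096 to 0.59, limma adjusted p = 0.911). The second SLC39A14 probe set had the opposite sign, with a difference of -0.28 (interval -0.99 to 0.43, limma adjusted p = 0.981).

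At 63 dpc the differences between diets were small beside their errors. MUT averaged 6.49 ± 0.095 in methyl-diet and 6.54 ± 0.36 in control arrays (SD, n = 6 each, difference -0.046, interval -0.40 to 0.31). MMADHC averaged 10.39 ± 0.24 in methyl-diet and 10.35 ± 0.45 in control arrays (difference 0.041, interval -0.39 to 0.47). The brighter SLC39A14 probe set averaged 7.29 ± 0.18 in methyl-diet and 7.19 ± 0.13 in control arrays, and its interval ran from -0.29 to 0.48. The second SLC39A14 probe set again had the opposite sign (difference -0.076, interval -0.72 to 0.57).

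At 91 dpc the largest difference was that of the brighter SLC39A14 probe set, which averaged 7.50 ± 0.34 in methyl-diet and 7.94 ± 0.55 in control arrays (SD, n = 5 each). The difference was -0.43 with an interval of -0.85 to -0.012 (limma adjusted p = 0.747), and it ran from -0.61 to -0.24 on leaving out each array in turn. In high-gap arrays alone it was -0.72 ± 0.27 (SE, limma adjusted p = 0.348) and in low-gap arrays alone -0.0071 ± 0.27 (limma adjusted p = 1). The value 7.21 occurred in 2 methyl-diet arrays and 1 control array, and the ranges overlapped. The second SLC39A14 probe set differed by -0.26 (interval -0.97 to 0.45), and its differences at 35 and 63 dpc were negative too. The diet effect on the brighter SLC39A14 probe set was positive at 35 and 63 dpc and negative at 91 dpc, and the test of a change in the diet effect with age gave F = 3.63 (limma adjusted p = 1). Limma called 0 of 15327 probe sets by that interaction test, with 660 at an unadjusted p under 0.05. MUT averaged 7.09 ± 0.35 in methyl-diet and 7.26 ± 0.35 in control arrays at 91 dpc, and MMADHC 10.90 ± 0.29 in methyl-diet and 10.996 ± 0.33 in control arrays (limma adjusted p = 1 for both).

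**Figure D2:**
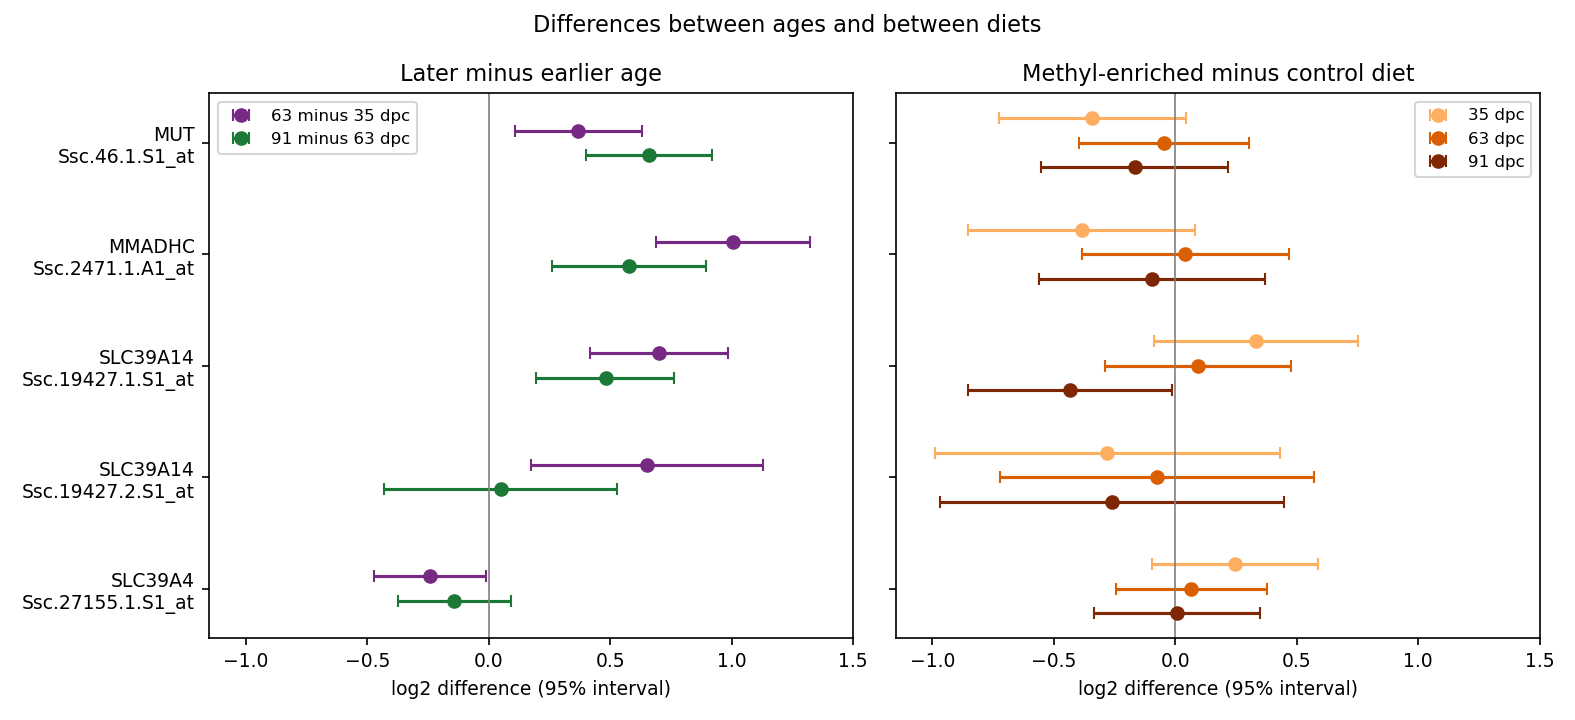
Log2 differences with their 95% intervals (x axis) for the 5 probe sets (y axis): left, each later minus the earlier age, averaged over diets, and right, methyl-enriched minus control diet at each age. The age intervals of MUT, MMADHC and SLC39A14 Ssc.19427.1.S1_at lie above 0, and of the 15 diet intervals 1 does not reach 0, that of SLC39A14 Ssc.19427.1.S1_at at 91 dpc (-0.85 to -0.012).

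MUT and MMADHC, which act in one pathway, deviated together from their group means. Over 32 arrays Pearson's r of the deviations was 0.705 (permutation p = 0.00013 with arrays shuffled within groups, adjusted over the 2 relations computed 0.00026) and Spearman's rho was 0.707 (permutation p = 0.00021, adjusted 0.00042). Without the 2 arrays farthest from the median of MUT r was 0.614, and within batches it was 0.505 in the 18 high-gap arrays and 0.821 in the 14 low-gap ones. The relation was not particular to the pair, since 10.6% of all probe sets tested had a higher r with MMADHC. The low-gap arrays lay lower for both genes, on average by -0.083 for MUT and -0.18 for MMADHC relative to the group means, against 0.065 and 0.14 in high-gap arrays. The permutations shuffled arrays across the batches too, so this shift enters the pooled r and its p.

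**Figure D3:**
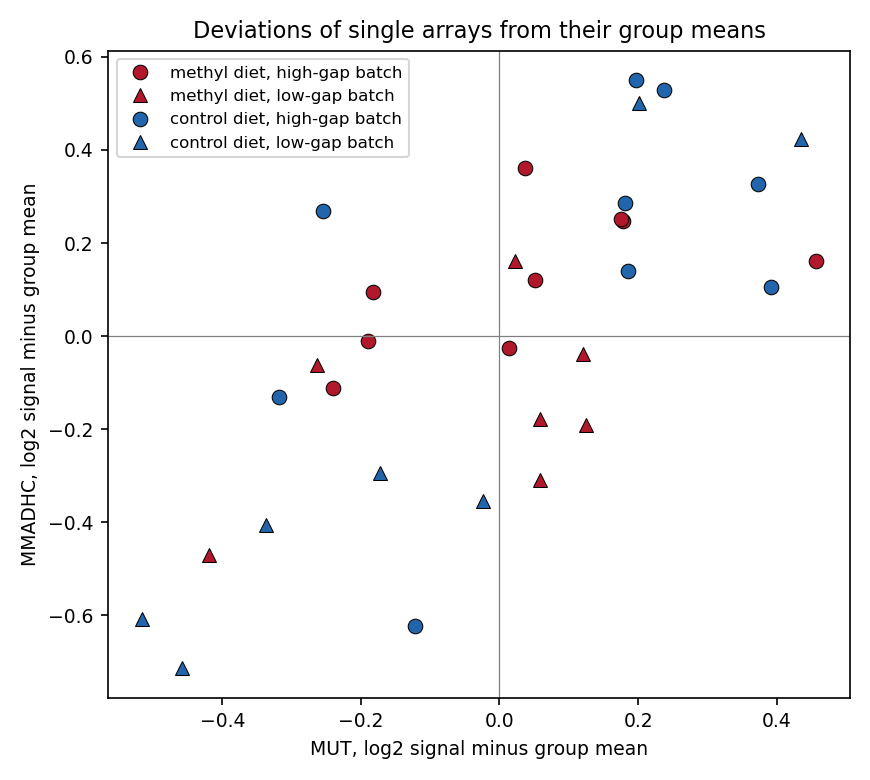
Deviation of each array from its group mean (log2 signal) for MMADHC (y axis) against MUT (x axis), red for methyl-enriched and blue for control diet, circles for high-gap and triangles for low-gap arrays. The points run from low for both genes to high for both (r = 0.705 over 32 arrays).

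The genes whose signal followed each member most closely over the 32 arrays, ages included, were RBM39 (r = 0.984), ARMC1 (0.979) and SERP1 (0.977) for MMADHC, and RWDD1 (0.929), GNG10 (0.921) and PAPD5 (0.92) for MUT. For the brighter SLC39A14 probe set they were SETD5 (0.916), TSHZ2 and VEGFA (0.897 each), and for SLC39A4 HSPB7 (0.769), KCNMB1 (0.751) and BSCL2 (0.738). These correlations describe arrays that share their age steps and batches. SLC39A4 held the value 4.27 in 24 of 32 arrays, so its correlations rest mainly on the few arrays with another value.

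Of 22 listed genes of cobalamin uptake and use, 12 were named on the array and 9 tested, MUT and MMADHC among them. Of the other 7, 1 rose, 3 fell and 3 were not called between 63 and 35 dpc (median -0.029, against 0.046 over all probe sets). The 1 that rose was TCN1, with means of 2.292, 2.758 and 2.425 at 35, 63 and 91 dpc. These lay within or below the arrays' 40th percentiles (2.74 to 2.93), and 16 arrays held 1 repeated value. Between 91 and 63 dpc 1 rose, 2 fell and 4 were not called (median -0.33, against -0.034), and between 91 and 35 dpc 0 rose, 2 fell and 5 were not called. Of all probe sets tested limma called 60.5% between 63 and 35 dpc, 58.5% between 91 and 63 dpc and 79.9% between 91 and 35 dpc. HCFC1, a transcriptional coregulator that in humans is needed for expression of a cobalamin processing gene, fell by 1.83 ± 0.11 (SE) between 91 and 35 dpc (limma adjusted p = 3.37e-15), and THAP11, its DNA-binding partner in that role, fell by 1.73 ± 0.105 (limma adjusted p = 4e-15). TCN1 and a further 3 genes are named here after their values were seen. TCN2, the blood carrier of cobalamin, fell by 0.67 ± 0.16 between 63 and 35 dpc and rose by 0.60 ± 0.16 between 91 and 63 dpc (limma adjusted p = 0.00048 and 0.00148). MTR, methionine synthase itself, lay at 2.89, 2.90 and 2.81 at the 3 ages, near the arrays' 40th percentiles (2.74 to 2.93), and MMAB, which makes the mutase's cofactor, differed by 0.064 ± 0.082 between 91 and 35 dpc (limma adjusted p = 0.475).

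Genes of propionyl-CoA and branched-chain amino acid breakdown, some acting before the mutase and some after it, went both ways. Of 21 listed, 16 were tested, MUT among them, and of the other 15, 7 rose and 8 fell between 91 and 35 dpc, where 40.8% of all probe sets tested were called higher and 39.1% lower. The median of these 15 was -0.35, and with MUT included it was 0.23. PCCA, a subunit of the propionyl-CoA carboxylase that acts upstream of the mutase, rose by 1.5 ± 0.18 (SE, limma adjusted p = 5.25e-09). SUCLG2, a subunit of the succinyl-CoA ligase that uses the mutase's product, rose by 1.93 ± 0.15 (limma adjusted p = 8.52e-13), and DLD, the shared subunit of several dehydrogenase complexes, rose by 1.78 ± 0.195 (limma adjusted p = 1.39e-09). ACAD8, a dehydrogenase of valine breakdown, was lower at 91 dpc by 1.49 on the log2 scale (difference -1.49 ± 0.0905, limma adjusted p = 3.98e-15). Without MUT the first interval had 7 rises and 8 falls, and the second 6 rises and 4 falls. Limma called 60.5% and 58.5% of all probe sets tested in these intervals.

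Among zinc importers of the SLC39A family, SLC39A14 was the 1 gene that rose. Of 14 listed genes 6 were named on the array and 5 tested, SLC39A14 and SLC39A4 included, and between 91 and 35 dpc 1 rose, 3 fell and 1 was not called. Over the same span 40.8% of all probe sets tested were called higher and 39.1% lower. SLC39A1, a plasma membrane importer, read 10.26, 9.68 and 9.30 at 35, 63 and 91 dpc and differed by -0.96 ± 0.11 (SE) over that span (limma adjusted p = 2.51e-09). SLC39A7, which releases zinc from the secretory pathway, differed by -0.65 ± 0.12 (limma adjusted p = 1.24e-05), and SLC39A5, the fifth tested and named after its value was seen, by -0.19 ± 0.11 (limma adjusted p = 0.0971). Of 10 zinc exporters of the SLC30A family only SLC30A5, which loads zinc into the secretory pathway, was tested, and it rose by 1.87 ± 0.23 between 91 and 35 dpc (limma adjusted p = 1.2e-08). MT1A, a zinc-binding metallothionein, read 15.64, 14.91 and 14.73 at the 3 ages and differed by -0.92 ± 0.13 (limma adjusted p = 2.7e-07), while MT3, of the same family, differed by -0.13 ± 0.40 (limma adjusted p = 0.764).

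SLC39A14 also carries iron, and the iron list was mixed. Of 11 genes tested 4 rose and 5 fell between 91 and 35 dpc (median -0.24), where 40.8% of all probe sets tested were called higher and 39.1% lower. The metalloreductase STEAP4 rose by 4.41 ± 0.21 (SE, limma adjusted p = 2.58e-17), with means of 2.79, 4.33 and 7.20 at the 3 ages, the lowest of them near the 40th percentiles. ACO1, the iron regulatory protein that is also the cytosolic aconitase, rose by 1.31 ± 0.14 (limma adjusted p = 1.31e-09), and the ferritin chains FTH1 and FTL, which store iron, differed by -0.81 ± 0.049 and -0.57 ± 0.040 (limma adjusted p = 3.23e-15 and 7.96e-14). Of 9 tested genes of interleukin-6 signalling and the acute phase, 4 rose and 2 fell over the same span (median 0.060). The fibrinogen chains FGG and FGB rose by 1.56 ± 0.10 and 1.47 ± 0.115 (limma adjusted p = 2.57e-14 and 1.11e-12), whereas SAA2, an acute phase serum amyloid, differed by -2.13 ± 0.10 and STAT3, the transcription factor downstream of the interleukin-6 receptor, by -0.89 ± 0.11 (limma adjusted p = 2.1e-17 and 1.5e-08). No gene of the 7 lists was called between diets at any age, the smallest limma adjusted p over the lists and ages being 0.571.

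**Figure D4:**
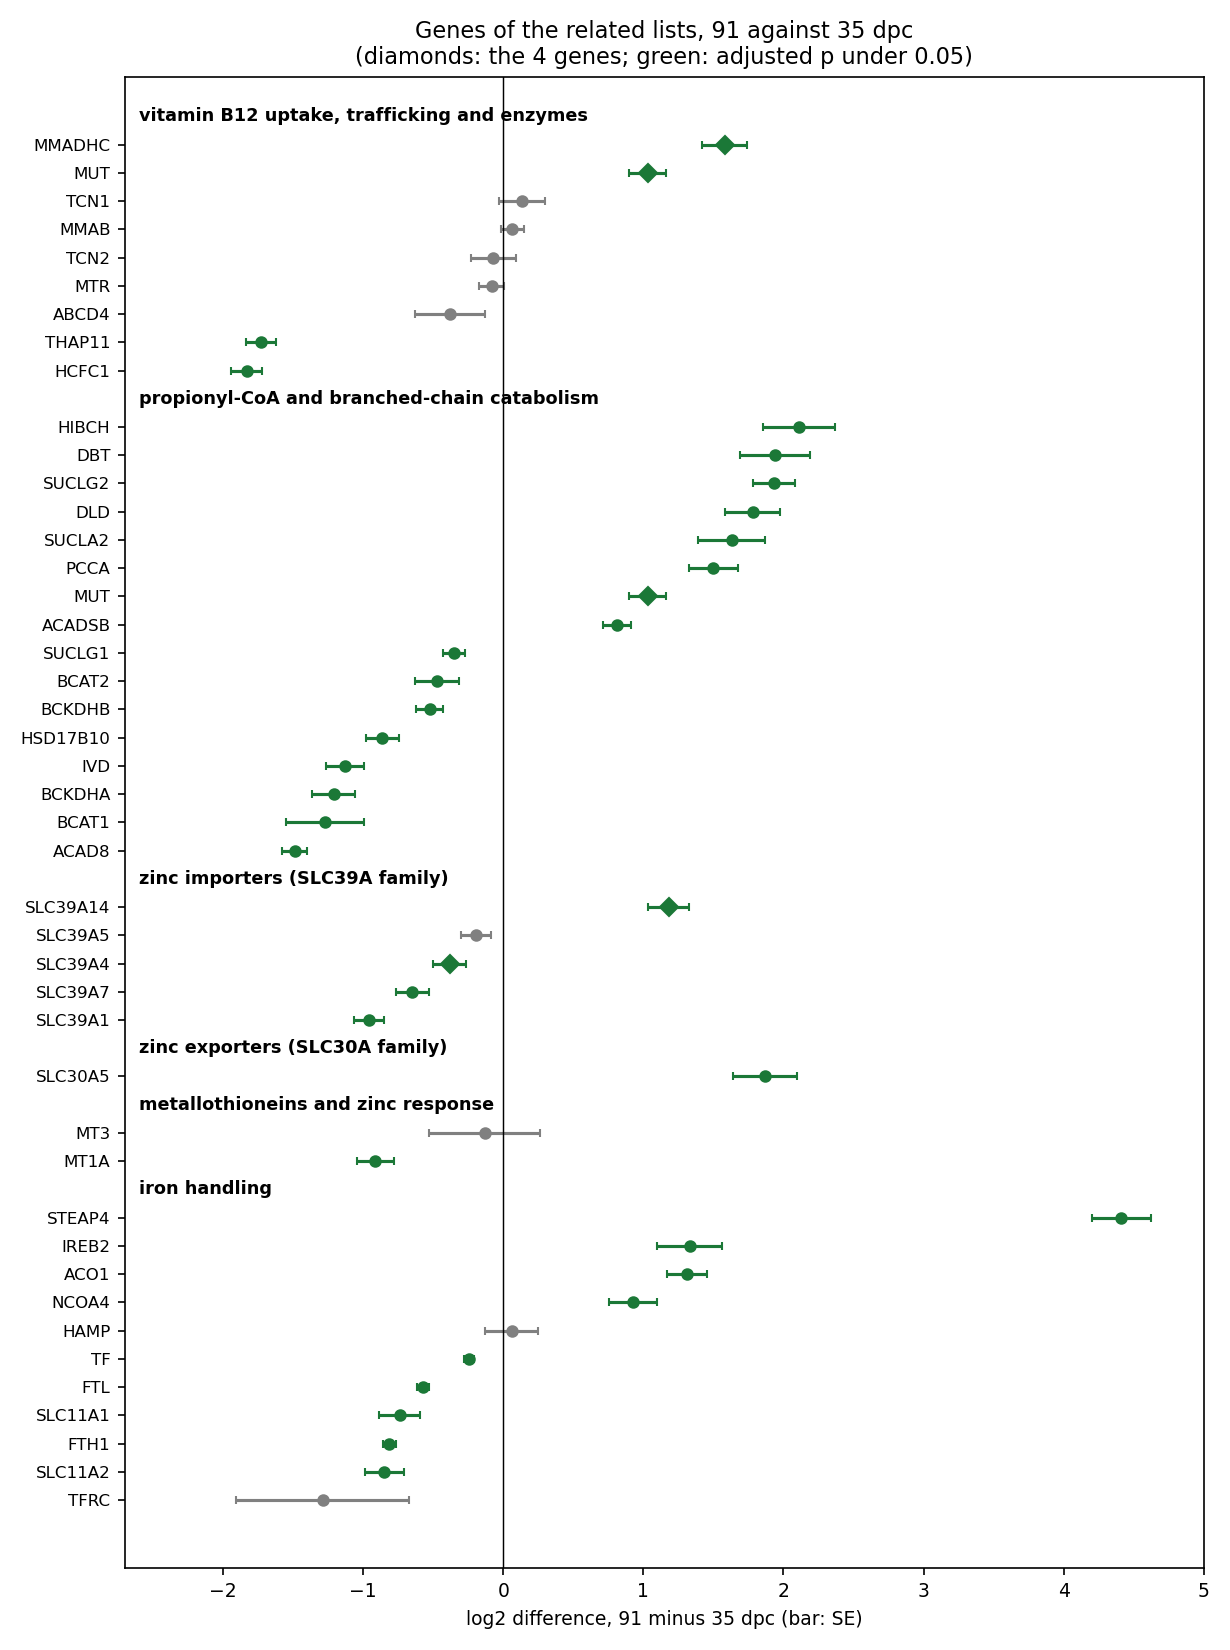
Log2 difference between 91 and 35 dpc (x axis, bar: SE) for the tested genes of the vitamin B12, propionyl-CoA, zinc and iron lists (y axis), with diamonds for MUT, MMADHC, SLC39A14 and SLC39A4 and green for an adjusted p under 0.05. SLC39A14 lies alone to the right of 0 among the zinc importers, and the propionyl-CoA list has 8 genes on each side, MUT included.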

How the data were processed

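RNA of 32 fetal livers was measured on 1-colour Affymetrix porcine arrays, and per the submitters' processing notes GCOS 1.1.1 is listed, with no step given for it. The deposited values were log2 signals, already normalized by the authors by a method not given in the sources used here, so the background correction and scaling are unknown. The annotation gave 1 symbol for 10099 of 24123 probe sets, several for 198 and none for 13826. After 124 control probe sets were left out, probe sets above the array's 40th percentile in at least 5 arrays were kept, which left 15327. In R 4.3.3, limma 3.58.1 fitted the 6 groups of age and diet together with moderated variances (26 residual and a median of 4.14 prior degrees of freedom), and the script was tested on simulated data. Calls used a Benjamini-Hochberg adjusted p under 0.05 over all probe sets tested. Age differences were averaged over the diets. The batch was set from the spike-in gap, split at 1.2.

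Members and lists were chosen with earlier results of these data known. All member probe sets were described, and up to 4 genes per list were named, those with the smallest p between 91 and 35 dpc at their brightest probe set, with the 3 genes most correlated with each member. Replicate numbers follow the order of the samples, and the labels pair no arrays. At 35 and 91 dpc the batch alternated along that order in every group. Nothing in the labels says that the arrays of a group came from separate dams, so p-values measure the spread between these samples. The alternatives were other filters, quantile normalization, array weights, a spread estimated robustly or without a trend, the batch as a block or each batch alone, an erythroid covariate, the compared ages alone, and each array left out in turn. A filter on repeated values was chosen after seeing the data.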

Additional observations from a re-analysis of the deposited data

Results flagged for a closer look

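Of 30 groups examined, with 1 probe set in 5 or 6 arrays each, 5 held an array far from the others by Dixon's criterion, which chance alone meets in about 1 in 20 groups without repeated values. The MUT signal of methyl-diet replicate 6 at 63 dpc was the lowest of its group at 6.303, with the nearest other array at 6.506. The brighter SLC39A14 probe set of methyl-diet replicate 2 at 35 dpc was the lowest of its group at 6.456, with the nearest at 6.734. The remaining 3 concern SLC39A4, where every other array of the group held the repeated value 4.272: methyl-diet replicate 5 at 63 dpc was higher at 4.669, methyl-diet replicate 5 at 91 dpc was lower at 3.747, and control replicate 5 at 91 dpc was lower at 3.713. In such a group any single array with another value meets the criterion, so the rate of 1 in 20 does not apply to these 3.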

How the results depend on the processing

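No paired analysis was possible because the replicate numbers follow only the order of the samples. The calls of MMADHC and of the brighter SLC39A14 probe set between 63 and 35 dpc held under all alternatives, and all member calls between ages held on leaving out each array in turn. The batch as a block changed no member call. Of the 5 members, 2 were called between 63 and 35 dpc in high-gap arrays alone and 2 in low-gap arrays alone, 0 between 91 and 63 dpc in low-gap arrays alone or with the erythroid covariate, and 0 between 91 and 35 dpc with that covariate. Those last differences were 0.90 for MUT, 1.24 for MMADHC, 0.58 and 1.21 for SLC39A14 and -0.50 for SLC39A4. Without the covariate they were 1.03, 1.58, 1.18, 0.70 and -0.38, with smaller SEs. The second SLC39A14 probe set and SLC39A4 thus differed by more with the covariate, and the others by less. Over all probe sets, low-gap arrays alone gave 4798 calls between 63 and 35 dpc and 5260 between 91 and 63 dpc, and the erythroid covariate gave 2138 between 91 and 63 dpc and 5848 between 91 and 35 dpc. The cause of these losses was not tested. A batch alone also held fewer arrays than the whole series. Quantile normalization moved the median of all probe sets between 91 and 35 dpc to -0.15 and that between 91 and 63 dpc to -0.10, and turned the split between 63 and 35 dpc from 4985 higher and 4293 lower to 4315 higher and 5188 lower.

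Diet calls over all probe sets at 35 dpc (6) became 18 with no filter, 13 in the high-gap batch, and 0 with the 60th percentile filter, in low-gap arrays, with each age alone and without repeated values. At 91 dpc (11) they became 2 with the 60th percentile filter, 37 with array weights, 41 in the high-gap batch, 4 in the low-gap batch, 47 with the erythroid covariate, 0 with each age alone and 7 without repeated values. The interaction count (0) became 4 with array weights, 6 in the high-gap batch, 2 in the low-gap batch and 1 with the erythroid covariate.

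Leaving out each array gave 4 to 13 diet calls at 35 dpc (13 without control replicate 4 at 35 dpc), 1 to 43 at 91 dpc, 0 to 1 averaged over ages and 0 to 7 for the interaction (7 without control replicate 4 at 35 dpc). At 91 dpc there were 1, 43, 20 and 7 without methyl-diet replicates 1, 2, 4 and 5 of that age, and 20 and 32 without control replicates 1 and 4. Age counts ran from 8744 to 9462, from 8520 to 9131 and from 12034 to 12258, and the members called between 63 and 35 dpc from 4 to 5, as SLC39A4 (-0.29 to -0.15) passed in 3 of 32.

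Signs turned only for differences that were not called. Quantile normalization gave -0.035 for SLC39A14 Ssc.19427.2.S1_at between 91 and 63 dpc (array weights -0.015) and 0.00086 for Ssc.19427.1.S1_at between diets averaged over ages (low-gap 0.084). At 63 dpc the diet difference was 0.045 with array weights and 0.069 in low-gap arrays for Ssc.19427.2.S1_at, -0.030 in high-gap arrays for MMADHC and 0.035 in low-gap arrays for MUT. At 91 dpc that of SLC39A4 was -0.0072 with array weights and -0.0045 with the erythroid covariate. On leaving out each array, Ssc.19427.2.S1_at ran from -0.10 to 0.15 between 91 and 63 dpc and from -0.21 to 0.13 between diets at 63 dpc, where MUT ran from -0.15 to 0.041 and MMADHC from -0.081 to 0.15. Between diets at 91 dpc MMADHC ran from -0.20 to 0.022 and SLC39A4 from -0.11 to 0.11, and averaged over ages Ssc.19427.1.S1_at ran from -0.063 to 0.063.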
